A study of Mus musculus with 9 samples.

Results

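The small heat shock proteins are chaperones that share an alpha-crystallin domain and work without ATP. They bind proteins that are unfolding, keep them soluble and hand them over to the Hsp70 machinery for refolding or disposal. In striated muscle they sit on the Z-disc, on desmin filaments and on filamin, and mutations in several of them cause myopathy or motor neuropathy. The 7 genes described here, Cryab, Hspb1, Hspb2, Hspb3, Hspb6, Hspb7 and Hspb8, are the members known for their expression in muscle, and they were taken by symbol. They are 7 of the 55487 genes in the count table, and all 7 passed the filter on low counts that left 14851 genes for testing.

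Transcripts were measured by sequencing of polyadenylated RNA from mouse gastrocnemius, a mostly fast-twitch calf muscle, at the transition from disuse to renewed loading. Control comprised 4 mice kept in normal cages, Unloading 2 mice after 10 days of hindlimb unloading, in which the tail is held up so that the hind legs carry no weight, and Reloading 3 mice that spent 1 day in a normal cage after the same 10 days. Per the labels all 9 were male wild-type C57BL/6 mice, whereas the study names the substrain C57BL/6J for this experiment and females for the suspension, and the age was not given in the sources used here. The whole muscle was used, so a change in the share of a cell type and a change in RNA per cell cannot be told apart.

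The libraries held 9252443 to 19612101 read pairs in genes. All 8 muscle fibre markers had counts in every group, and their summed level was 166436 to 179291 counts per 1000000 (CPM) in Control, 169498 to 173180 in Unloading and 121389 to 132839 in Reloading. Transcripts of 7 skin genes reached 301 CPM in Control 2 and 135 CPM in Reloading 1 and 2.68 to 4.46 CPM in the other libraries. Every call made on the 7 genes for Reloading was also made without Control 2 and Reloading 1. The counts give the precision of single values for counting error only, and the smallest count of any of the 7 genes was 165, for Hspb3 in Control 1.

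Cryab encodes alpha-B-crystallin and lies on chromosome 9 (GRCm38, chr9:50751325-50756636, plus strand, ENSMUSG00000032060). Its head-to-head neighbour Hspb2 (chr9:50751078-50752354, minus strand, ENSMUSG00000038086) encodes a partner of the myotonic dystrophy kinase. The annotated spans of these 2 genes overlap by 1030 bases, of which 252 are exonic in both, and the counting did not use strand. Hspb1 (chr5:135887919-135889563, plus strand, ENSMUSG00000004951) encodes the mouse counterpart of Hsp27, an actin-binding stress protein. Hspb8 (chr5:116408491-116422864, minus strand, ENSMUSG00000041548) encodes Hsp22, which joins Bag3 in the disposal of damaged muscle proteins. Hspb6 (chr7:30552178-30555443, plus strand, ENSMUSG00000036854) encodes Hsp20, a target of the cyclic nucleotide kinases. Hspb7 (chr4:141420779-141425311, plus strand, ENSMUSG00000006221) encodes a filamin C-binding protein of heart and skeletal muscle, and Hspb3 (chr13:113662896-113663676, minus strand, ENSMUSG00000051456) encodes the partner of Hspb2 in a muscle-specific complex.

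Promoters of Hspb1, Hspb3, Hspb6, Hspb7 and Hspb8, 5 of the 7 genes, were matched in a RefSeq table (GRCm38.p6) that holds 250 bases before and 50 bases after each start site. They are shown because heat shock factors are known to act through inverted GAA units, and because these genes rose by very different amounts. Each runs 5′ to 3′ on the strand of its gene, and capitals mark matches to GAANNTTC, which reads the same on both strands. The other inverted arrangement, TTCNNGAA, was searched too and had no match in these 5 genes.
Hspb1, chr5:135887669-135887968, plus strand: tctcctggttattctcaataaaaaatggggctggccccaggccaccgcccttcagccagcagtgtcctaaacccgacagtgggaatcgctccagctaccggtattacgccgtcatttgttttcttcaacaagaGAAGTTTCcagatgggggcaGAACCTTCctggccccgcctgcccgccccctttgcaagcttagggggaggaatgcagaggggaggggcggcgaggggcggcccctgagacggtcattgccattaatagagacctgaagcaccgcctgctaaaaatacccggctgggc
Hspb6, chr7:30553051-30553350, plus strand: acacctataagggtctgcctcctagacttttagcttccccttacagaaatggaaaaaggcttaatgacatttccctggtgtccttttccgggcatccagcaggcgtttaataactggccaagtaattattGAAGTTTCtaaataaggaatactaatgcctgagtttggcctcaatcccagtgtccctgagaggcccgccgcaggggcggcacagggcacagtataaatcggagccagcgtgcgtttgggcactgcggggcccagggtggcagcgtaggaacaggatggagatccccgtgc
Hspb8, chr5:116422815-116423114, minus strand: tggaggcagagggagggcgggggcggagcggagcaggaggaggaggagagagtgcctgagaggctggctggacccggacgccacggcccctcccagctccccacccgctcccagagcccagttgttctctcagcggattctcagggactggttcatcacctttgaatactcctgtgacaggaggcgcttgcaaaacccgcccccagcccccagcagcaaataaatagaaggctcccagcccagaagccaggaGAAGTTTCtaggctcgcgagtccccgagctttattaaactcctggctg
Hspb7, chr4:141420529-141420828, plus strand: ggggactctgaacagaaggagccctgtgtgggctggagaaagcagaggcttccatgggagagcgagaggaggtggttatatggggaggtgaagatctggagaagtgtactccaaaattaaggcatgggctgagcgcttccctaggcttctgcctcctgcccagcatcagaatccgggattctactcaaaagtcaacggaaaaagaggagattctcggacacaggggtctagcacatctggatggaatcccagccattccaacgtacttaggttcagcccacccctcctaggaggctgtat
Hspb3, chr13:113663627-113663926, minus strand: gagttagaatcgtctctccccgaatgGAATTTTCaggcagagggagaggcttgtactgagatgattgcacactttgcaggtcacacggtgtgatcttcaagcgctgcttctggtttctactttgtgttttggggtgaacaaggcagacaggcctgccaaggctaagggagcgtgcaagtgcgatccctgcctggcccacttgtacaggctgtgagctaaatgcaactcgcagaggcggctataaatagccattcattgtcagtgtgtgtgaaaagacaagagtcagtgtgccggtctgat

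GAANNTTC occurred in 7.86% and TTCNNGAA in 8.52% of the 32851 mouse promoters of the same length. Hspb1 held 2 matches, GAAGTTTC beginning 117 bases and GAACCTTC beginning 97 bases before its start site. The Hspb6 promoter shown held GAAGTTTC 120 bases before its start, and a promoter of an upstream Hspb6 start held no match. In Hspb8 the same 8 letters followed the start site, beginning at the third base of the transcript. That 3 of the 5 genes hold GAAGTTTC was noticed after the sequences were seen, and 1.21% of all promoters hold it. Hspb3 held GAATTTTC 224 bases before its start, and Hspb7 held no match in this window. The matches are letters in a sequence, and binding was not measured.

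All 7 genes rose on Reloading. Against Unloading, 7 of 7 were called higher and 0 lower by edgeR's quasi-likelihood test, where 18.5% of all tested genes were called higher and 19.0% lower. Against Control, again 7 of 7 were called higher, beside 22.1% of all tested genes called higher and 21.3% lower. Both comparisons share the 3 Reloading libraries. The median log2 fold change of the 7 genes was 1.80 against Unloading and 1.61 against Control, and that of all tested genes was 0.03 and 0.01. For every one of the 7 genes each Reloading library lay above all 6 others, which held for 19.0% of tested genes. The sizes of the rise fell into steps. Hspb1, Cryab and Hspb7 rose 7.62-fold to 14.6-fold, Hspb6 and Hspb8 rose 2.44-fold to 3.48-fold, and Hspb2 and Hspb3 rose 1.32-fold to 1.57-fold, a division made after the values were seen.

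**Figure D1:**
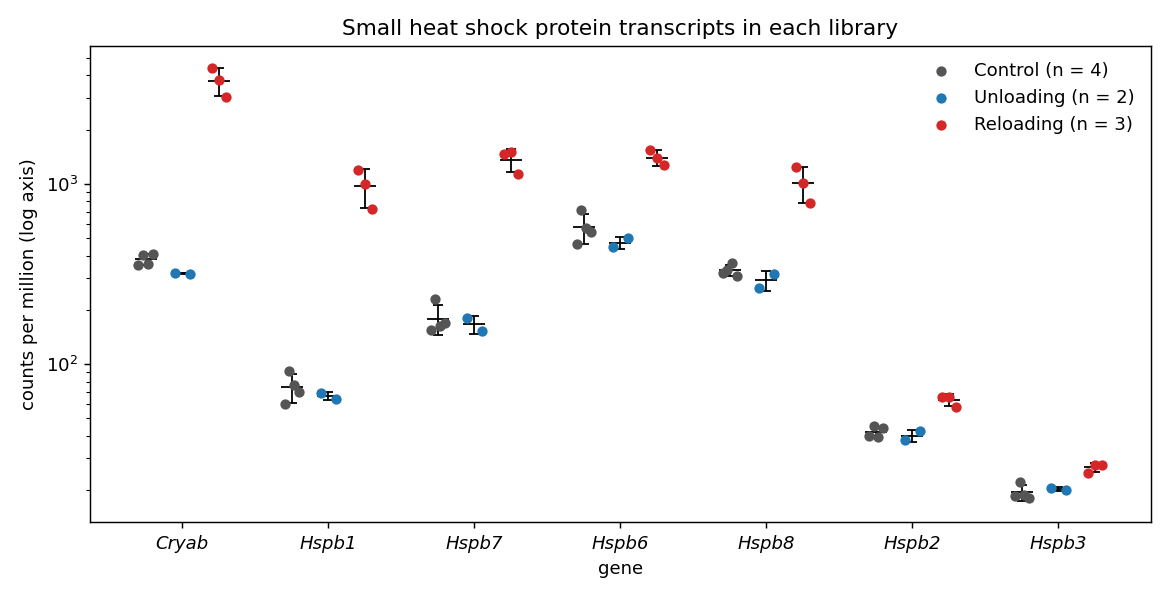
Normalised level of each small heat shock protein transcript in CPM on a log axis, with 1 point per library and bars for the group mean and SD (4 Control, 2 Unloading and 3 Reloading libraries). For all 7 genes the 3 Reloading points lie above the Control and Unloading points, by most for Cryab, Hspb1 and Hspb7.

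Hspb1 showed the largest change of the 7 genes. Its level was 59.9, 91.7, 76.5 and 69.6 CPM in Control 1 to 4, 69.3 and 64.2 CPM in Unloading 1 and 2, and 1198, 993 and 724 CPM in Reloading 1 to 3. The Control and Unloading values overlapped, and the lowest Reloading library was far above both. The log2 fold change was 3.86 ± 0.20 (SE) against Unloading, a 14.6-fold rise (adjusted p = 6.64e-09, edgeR), and 3.70 ± 0.15 against Control, a 13.0-fold rise (adjusted p = 1.86e-10, edgeR). It ranked 66th from the top of 14851 genes in the first comparison and 36th in the second.

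Cryab, the most abundant of the family in Reloading, was counted at 354, 405, 361 and 408 CPM in Control 1 to 4. It stood at 319 and 318 CPM in Unloading 1 and 2, and at 4410, 3766 and 3055 CPM in Reloading 1 to 3. Both Unloading libraries lay below all 4 Control libraries, and the Reloading libraries lay above them all. Cryab rose 11.8-fold from Unloading to Reloading (log2 fold change 3.56 ± 0.14, adjusted p = 3.61e-10, edgeR) and 9.80-fold from Control to Reloading (log2 fold change 3.29 ± 0.10, adjusted p = 1.22e-11, edgeR).

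Hspb7 was measured at 155, 229, 163 and 169 CPM in Control 1 to 4, at 180 and 153 CPM in Unloading 1 and 2, and at 1459, 1502 and 1135 CPM in Reloading 1 to 3. Control 2 was the highest library outside Reloading. The gene rose 8.19-fold against Unloading (log2 fold change 3.03 ± 0.17, adjusted p = 1.09e-08, edgeR) and 7.62-fold against Control (log2 fold change 2.93 ± 0.13, adjusted p = 3.28e-10, edgeR).

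Hspb8, the Bag3 partner, showed 321, 333, 364 and 310 CPM in Control 1 to 4, 266 and 317 CPM in Unloading 1 and 2, and 1243, 1016 and 787 CPM in Reloading 1 to 3. The Reloading libraries differed among themselves more than the Control libraries did, with coefficients of variation of 22.5% and 7.04%. The rise was 3.48-fold against Unloading (log2 fold change 1.80 ± 0.15, adjusted p = 6.39e-07, edgeR) and 3.06-fold against Control (log2 fold change 1.61 ± 0.12, adjusted p = 9.04e-08, edgeR).

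Hspb6 was already abundant before Reloading, with 462, 719, 570 and 543 CPM in Control 1 to 4 and 446 and 498 CPM in Unloading 1 and 2. Reloading 1 to 3 held 1540, 1398 and 1265 CPM. Control 2 stood above the other Control libraries, yet below each Reloading library. Hspb6 rose 2.97-fold against Unloading (log2 fold change 1.57 ± 0.15, adjusted p = 1.85e-06, edgeR) and 2.44-fold against Control (log2 fold change 1.29 ± 0.11, adjusted p = 5.70e-07, edgeR). Its exons share 122 bases with Proser3 on the opposite strand, which had 12 to 63 counts per library beside at least 4093 for Hspb6.

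Hspb2 changed far less than its neighbour Cryab. It was counted at 39.8, 45.1, 39.6 and 43.9 CPM in Control 1 to 4, at 37.8 and 42.3 CPM in Unloading 1 and 2, and at 65.8, 66.0 and 57.9 CPM in Reloading 1 to 3. The Control and Unloading values overlapped, and every Reloading library lay above both groups. The rise was 1.57-fold against Unloading (log2 fold change 0.65 ± 0.09, adjusted p = 7.95e-05, edgeR) and 1.5-fold against Control (log2 fold change 0.59 ± 0.08, adjusted p = 2.51e-05, edgeR). The gain of Hspb2 from Control to Reloading was 21.1 CPM, which is 0.629% of the 3362 CPM gained by Cryab over the same libraries. Since the exons of these genes share 252 bases and strand was not used in counting, reads of that stretch cannot be assigned by strand, and how many of them stood behind the Hspb2 gain was not tested.

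Hspb3, the least abundant member, had 18.6, 22.2, 18.7 and 18.0 CPM in Control 1 to 4, 20.6 and 19.9 CPM in Unloading 1 and 2, and 25, 27.6 and 27.4 CPM in Reloading 1 to 3. Reloading 1 was the lowest of its group yet lay above Control 2. The rise was 1.32-fold against Unloading (log2 fold change 0.40 ± 0.11, adjusted p = 0.00902, edgeR) and 1.37-fold against Control (log2 fold change 0.46 ± 0.09, adjusted p = 0.000806, edgeR). Without Unloading 2 the first of these values was 0.37 and did not pass the threshold (adjusted p = 0.0743, edgeR), with a single Unloading library that is then assumed to vary like the other groups.

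**Figure D2:**
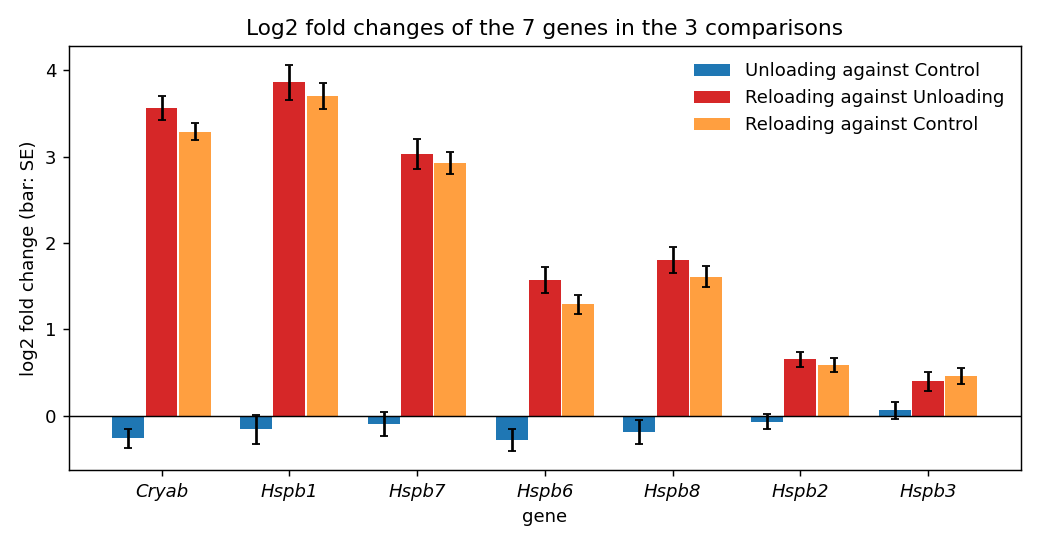
Log2 fold change of each gene in the 3 comparisons, with bars starting at 0 and whiskers for the SE from the fit over all 9 libraries. Reloading bars run from 0.40 for Hspb3 to 3.86 for Hspb1, and Unloading against Control bars run from -0.28 for Hspb6 to 0.06 for Hspb3.

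Unloading for 10 days moved none of the 7 genes past the threshold. By edgeR's quasi-likelihood test 0 of 7 were called higher and 0 lower, beside 4.40% and 5.50% of all tested genes, and 1 of 7 had an unadjusted p under 0.05. DESeq2 and limma likewise called 0 of 7, each with 1 gene at an unadjusted p under 0.05. The log2 fold change was below 0 for 6 genes and above 0 for Hspb3, with a median of -0.16. Cryab was the gene with the small unadjusted p, at a log2 fold change of -0.26 ± 0.11 (adjusted p = 0.163, edgeR). It was also the only one whose 2 Unloading and 4 Control libraries did not overlap. The shares of all tested genes without overlap, below 0 or with such an unadjusted p were not worked out. These counts therefore cannot be read as particular to the 7 genes. Hspb6 had -0.28 ± 0.13 (adjusted p = 0.198, edgeR) and Hspb8 had -0.19 ± 0.14 (adjusted p = 0.419, edgeR). Hspb1 at -0.16 ± 0.17, Hspb7 at -0.10 ± 0.14, Hspb2 at -0.07 ± 0.09 and Hspb3 at 0.06 ± 0.10 had adjusted p of 0.601 to 0.759 by edgeR.

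Levels of different genes were compared per length, as reads per kilobase of exon per 1000000 (RPKM). The length was that of all annotated exons, 1479 bases for Cryab and 834 for Hspb2, each with the 252 shared bases. How the order of genes depends on these lengths was not tested. In Control the order of the mean RPKM was Cryab at 258, Hspb6 at 249, Hspb8 at 170, Hspb1 at 72.2, Hspb7 at 64.6, Hspb2 at 50.5 and Hspb3 at 24.8. The ranges of Cryab and Hspb6 overlapped, with Cryab ahead in 2 of 4 libraries, and those of Hspb1 and Hspb7 overlapped too. Unloading kept this order of means, from 215 RPKM for Cryab to 25.9 RPKM for Hspb3, with the same 2 overlaps. In Reloading the order of the mean RPKM became Cryab at 2531, Hspb1 at 942, Hspb6 at 609, Hspb8 at 521, Hspb7 at 493, Hspb2 at 75.8 and Hspb3 at 34.1. Hspb1 passed Hspb6 and Hspb8 in all 3 Reloading libraries, while the ranges of Hspb6 and Hspb8, and of Hspb8 and Hspb7, overlapped. By mean RPKM Cryab stood 134th of the 14851 tested genes in Control and 21st in Reloading, and Hspb1 stood 496th and 33rd.

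The family as a whole made up 0.152% ± 0.0167 (mean ± SD) of the read pairs in genes of the 4 Control libraries, 0.129% ± 0.00351 of those of the 2 Unloading libraries and 0.959% ± 0.168 of those of the 3 Reloading libraries. Its summed RPKM was 890 ± 91.3 in Control, 769 ± 27.1 in Unloading and 5207 ± 929 in Reloading. The make-up of that sum shifted with it. Cryab supplied 29.1% ± 2.12 of the summed RPKM in Control, 28% ± 1.01 in Unloading and 48.6% ± 0.458 in Reloading, and Hspb1 supplied 8.06% ± 0.652, 8.43% ± 0.753 and 18.0% ± 1.26. The share of Hspb6 was 27.8% ± 2.31, 26.7% ± 1.15 and 11.8% ± 1.03, and that of Hspb8 was 19.2% ± 2.08, 19.4% ± 1.71 and 9.94% ± 0.483, although both genes rose in level. Hspb7 held 7.22%, 7.85% and 9.53%, Hspb2 5.69%, 6.24% and 1.48%, and Hspb3 2.79%, 3.38% and 0.673% of the sum in Control, Unloading and Reloading.

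**Figure D3:**
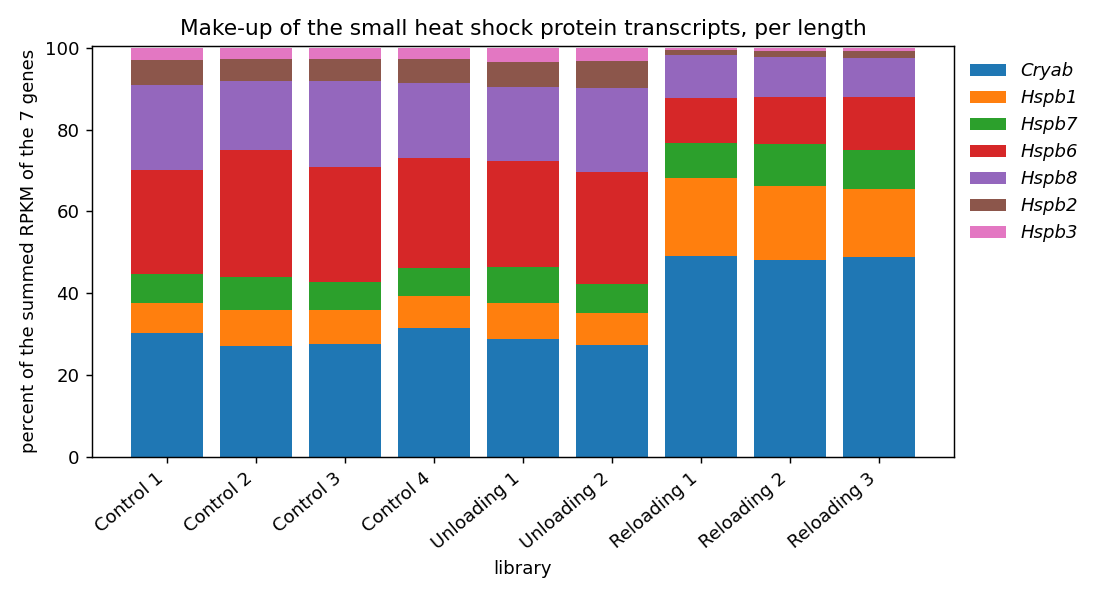
Percent of the summed RPKM of the 7 genes supplied by each gene, as stacked bars with 1 bar per library. Cryab fills 27.1% to 31.5% of the Control bars and 48.1% to 49.0% of the Reloading bars, while Hspb6 and Hspb8 take up less of the Reloading bars.

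Whether the genes rose by different amounts was tested on the log2 ratio of each pair within a library, which no scaling between libraries can change. For 17 of 21 pairs the ratio differed between the 3 groups by an exact permutation test over all 1260 assignments of the libraries, adjusted over the 21 pairs. The pairs share 7 genes and are not independent. Pairs of other genes were not tested, so the count cannot be set beside a share over all genes. The ratios of Cryab to Hspb2 and of Cryab to Hspb3 both showed the smallest p the test gives (exact permutation p = 0.000794, adjusted p = 0.00833). With all libraries the test gives 0.0119 when Reloading alone stands apart. The log2 ratio of Cryab to Hspb2 was 3.18 ± 0.03 in Control (SD, n = 4), 2.99 ± 0.12 in Unloading and 5.87 ± 0.18 in Reloading, so the adjacent genes parted on Reloading. The log2 ratio of Hspb1 to Hspb6 went from -2.94 ± 0.03 in Control and -2.82 ± 0.19 in Unloading to -0.55 ± 0.23 in Reloading. Hspb1 also gained on Hspb7, with log2 ratios of -1.26 ± 0.12, -1.32 ± 0.09 and -0.51 ± 0.20. The 4 pairs that did not pass were Cryab and Hspb1 (adjusted p = 0.0719, exact permutation), Cryab and Hspb7 (adjusted p = 0.0556), Hspb6 and Hspb8 (adjusted p = 0.298) and Hspb2 and Hspb3 (adjusted p = 0.215). For Cryab and Hspb1 the log2 ratio ranged from 2.14 to 2.56 in Control and from 1.88 to 2.08 in Reloading, so a small difference remains possible. The log2 ratio of Hspb6 to Hspb8 ranged from 0.52 to 1.11 in Control and from 0.31 to 0.68 in Reloading, and that of Hspb2 to Hspb3 from 1.02 to 1.28 and from 1.08 to 1.39. Between the 3 Control and Reloading libraries that share a number in the sample descriptions, all 3 differences went the same way for 3 of these 4 pairs. The log2 ratio was changed from Control to Reloading by -0.47 to -0.26 for Cryab to Hspb1, by -0.80 to -0.13 for Hspb6 to Hspb8 and by 0.15 to 0.77 for Cryab to Hspb7, while that of Hspb2 to Hspb3 changed by -0.20 to 0.38. With 3 such differences an exact test cannot go below 0.25. When any 1 Reloading library was left out 0 of 21 pairs passed after adjustment and 12 to 13 had an unadjusted p under 0.05 by the same exact permutation test, which with 2 Reloading libraries gives 0.0357 when Reloading alone stands apart.

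**Figure D4:**
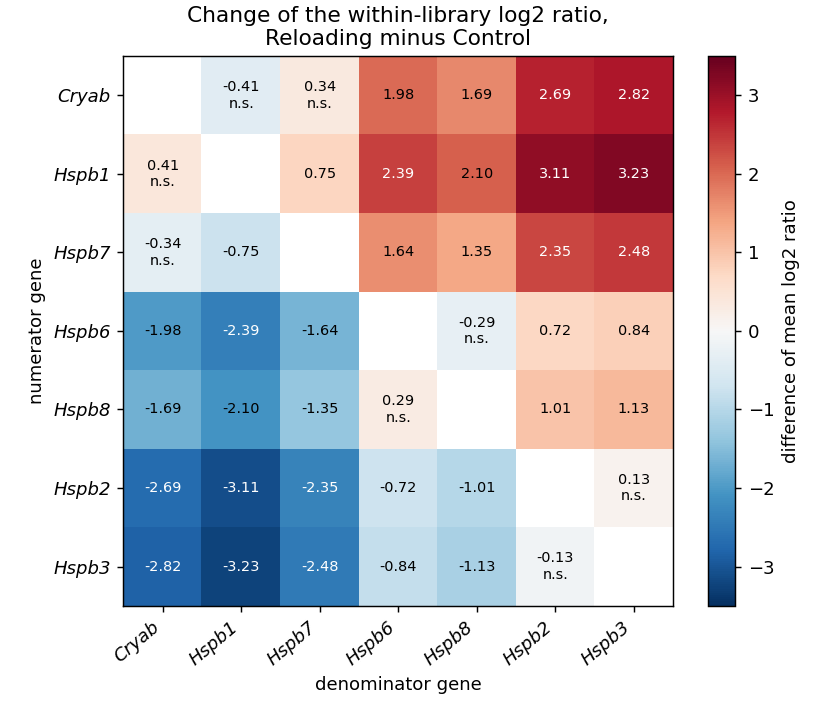
Difference between Reloading and Control in the mean within-library log2 ratio of the row gene to the column gene, with n.s. for the pairs whose ratio did not pass the exact permutation test over the 3 groups. The pairs marked n.s. are Cryab with Hspb1, Cryab with Hspb7, Hspb6 with Hspb8 and Hspb2 with Hspb3.

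Libraries of a group also differed among themselves. Of the 3 Reloading libraries, Reloading 3 was the lowest for 6 of the 7 genes and Reloading 1 for Hspb3, and Reloading 1 was the highest for 4. Among the Control libraries Control 2, which held the skin transcripts, was the highest for 5 of the 7 genes. How often each library was the highest or lowest over all tested genes was not worked out. After the group means were taken away, Pearson's r over the 9 libraries was 0.84 for Cryab with Hspb1, 0.85 for Hspb1 with Hspb7 and 0.84 for Hspb1 with Hspb6. It was -0.15 for Cryab with Hspb3 and -0.30 for Hspb3 with Hspb8. These values describe 9 libraries whose genes share depth and scaling.

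Transcripts whose log2 CPM followed each member over the 9 libraries were sought by Pearson's r, which mostly reads the difference between Reloading and the rest. The search covered tested genes with a symbol and left out the small heat shock protein genes themselves. The 3 closest transcripts are named for each member. For Cryab they were Hspa1b (r = 0.9985), Dnaja4 (r = 0.9983) and Myh9 (r = 0.9975), which encode an inducible Hsp70, an Hsp40 co-chaperone and a non-muscle myosin heavy chain. For Hspb1 they were Myh9 (r = 0.9993), Rrp12 (r = 0.9987) and Flnc (r = 0.9985), and for Hspb7 they were Flnc (r = 0.9968), Myh9 (r = 0.9963) and Hspa1b (r = 0.9962). Flnc encodes filamin C and Rrp12 a ribosome assembly factor. Hspb6 was closest to Tspan9 (r = 0.9985), Rab11fip5 (r = 0.9943) and Tagln2 (r = 0.9942). Hspb8 was closest to Cnksr1 (r = 0.9958), Srm (r = 0.9929), the spermidine synthase gene, and Gabarapl1 (r = 0.9927), an autophagosome protein gene. The nearest genes were P4ha2 (r = 0.9941), Rab11fip5 (r = 0.9893) and Zyx (r = 0.9893) for Hspb2. For Hspb3 they were Tgfb2 (r = 0.9816), S100a11 (r = 0.9789) and Btbd10 (r = 0.9774). An r over 0.99 was reached by 39 genes for Cryab, 44 for Hspb1 and 38 for Hspb7. It was reached by 9 genes each for Hspb6 and Hspb8, 1 for Hspb2 and 0 for Hspb3. Within the family, r rounded to 1.00 for Cryab with Hspb1 and for Hspb1 with Hspb7.

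The wider heat shock response, here 18 genes for Hsp70, Hsp90 and mitochondrial chaperones, their co-chaperones and the collagen chaperone Serpinh1, moved in the same direction. All 18 of its tested genes were called higher on Reloading against Unloading and against Control by edgeR (17 of 18 against Control without Control 2 and Reloading 1), with median log2 fold changes of 1.41 and 1.18. Of all tested genes 18.5% and 22.1% were called higher. Hspa1b rose from 1.49 CPM after Unloading to 184 CPM (log2 fold change 6.94 ± 0.20) and Hspa1a from 1.00 to 77.3 CPM (6.37 ± 0.31), with the caution that these genes are near-identical copies between which reads can be split. Dnaja4 rose by a log2 fold change of 3.37 ± 0.12 and Dnajb1 by 3.18 ± 0.20, close to the values of Cryab and Hspb7. On Unloading against Control 3 of the 18 were called lower, namely Hspa8 (-0.47 ± 0.11), Hsph1 (-0.48 ± 0.12) and Stip1 (-0.30 ± 0.09), and 0 higher, beside 5.50% and 4.40% of all tested genes. With the description numbers as a block 5 of the 18 were called lower, beside 797 of 14851 tested genes. Without Control 2 and Reloading 1 it was 2 of the 18, beside 626 of 14765, and Stip1 did not pass (-0.29, adjusted p = 0.0557, edgeR). The transcripts of the factors that drive this response had far smaller values. Of Hsf1, Hsf2, Hsf4 and their binding protein Hsbp1, against Unloading Hsf1 was called higher (log2 fold change 0.25 ± 0.09, adjusted p = 0.0354, edgeR) and Hsbp1 lower (-0.30 ± 0.08, adjusted p = 0.00875, edgeR), with -0.05 ± 0.10 for Hsf2 and -0.01 ± 0.13 for Hsf4. Hsf1 did not pass without Control 2 and Reloading 1 (0.24, adjusted p = 0.0861, edgeR), 0 of the 4 were called higher with the description numbers as a block, and Hsbp1 did not pass when libraries were scaled by their totals alone (-0.05, adjusted p = 0.609, edgeR). Against Control Hsf4 was called higher (0.38 ± 0.12, adjusted p = 0.0165, edgeR) and Hsbp1 lower (-0.34 ± 0.07, adjusted p = 0.000912, edgeR). There Hsf4 did not pass without Control 2 and Reloading 1 (0.24, adjusted p = 0.177, edgeR). Hsbp1 did not pass there with scaling by library totals (-0.10, adjusted p = 0.211, edgeR).

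Hspb8 works with Bag3, Hspa8 and the ubiquitin ligase Stub1 in chaperone-assisted selective autophagy, which clears damaged filamin from the Z-disc. Of 9 genes of this route 4 were called higher on Reloading against Unloading and 0 lower, beside 18.5% and 19.0% of all tested genes. With scaling by library totals 7 of the 9 were called higher, as were 5250 of all 14851 tested genes. The 4 called with TMM scaling were Flnc (log2 fold change 3.68 ± 0.18), Bag3 (1.83 ± 0.15), Hspa8 (1.41 ± 0.11) and the autophagy receptor gene Sqstm1 (0.50 ± 0.11). Bag3 and Hspa8 are also counted among the 18 heat shock response genes. The Bag3 value lay beside that of Hspb8, 1.80 ± 0.15, while Stub1 had -0.05 ± 0.08 (adjusted p = 0.693, edgeR). Against Control 5 of the 9 were called higher, beside 22.1% of all tested genes. They were the same 4 and Vps16 (0.32 ± 0.11), which did not pass without Control 2 and Reloading 1 (0.29, adjusted p = 0.0852, edgeR).

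Among 8 genes for cytoskeletal and other proteins that small heat shock proteins bind, 4 were called higher and 1 lower on Reloading against Unloading. Of all tested genes 18.5% and 19.0% were. Those called higher were Flnc, Actn2 (log2 fold change 1.38 ± 0.10), which encodes the Z-disc protein alpha-actinin, Vim (1.27 ± 0.14) and Actb (0.52 ± 0.10), and Ttn, the titin gene, was lower (-0.34 ± 0.12), a call not made without Control 2 and Reloading 1 (-0.27, adjusted p = 0.0881, edgeR) or with scaling by library totals (-0.10). Desmin, the filament on which Cryab sits, did not pass the test (Des, -0.14 ± 0.08, adjusted p = 0.151, edgeR). Against Control 5 were called higher and 2 lower, beside 22.1% and 21.3% of all tested genes. Des was among the 5 (0.19 ± 0.06, adjusted p = 0.0253, edgeR). On Unloading against Control 1 was higher (Des, 0.33 ± 0.07) and 2 were lower (Acta1, -0.68 ± 0.09, and Dmpk, -0.41 ± 0.09), beside 4.40% and 5.50%. With the description numbers as a block, 2 of the 8 were called lower on Reloading against Unloading and 2 higher on Unloading against Control. The listed kinases phosphorylate Hspb1, Cryab or Hspb6 or, like Mapk11, act upstream of kinases that do. They showed 1 gene higher and 2 lower of 9 tested on Reloading against Unloading, near the 18.5% and 19.0% of all tested genes. The largest values were those of Mapk11 at 1.00 ± 0.30, Prkd1 at -0.73 ± 0.24 and Prkaca at -0.22 ± 0.08. These kinase counts moved with the choices made. With scaling by library totals 6 were higher and 0 lower, where Prkaca was at 0.03 and 5250 of 14851 tested genes were called higher. The counts were 1 higher and 0 lower without Control 2 and Reloading 1. They were 0 higher and 1 lower with the numbers of the sample descriptions as a block. Mapkapk2, the main Hspb1 kinase, had 0.12 ± 0.08 (adjusted p = 0.275, edgeR). Of 4 other genes listed beside the family, Cryaa, Hspb9 and Odf1 had at most 2 counts per library. Hspb11, listed for its symbol and not as a member with the shared domain, had 19 to 33. Its log2 fold changes were 0.51 ± 0.33 against Unloading and -0.19 ± 0.27 against Control (adjusted p = 0.246 and 0.601, edgeR).

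**Figure D5:**
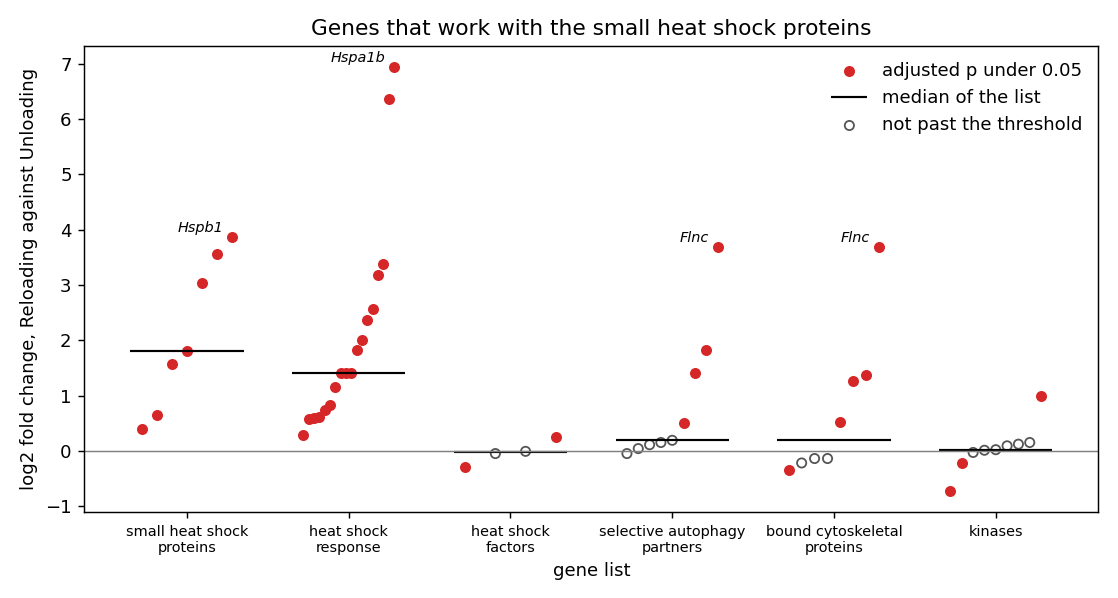
Log2 fold change of each tested gene for Reloading against Unloading, by list, with filled points for genes past the threshold in edgeR's test, open points for the others and a line at the median of each list. All 7 small heat shock protein genes and all 18 heat shock response genes lie above 0, while the heat shock factors and the kinases have medians of -0.03 and 0.02 with TMM scaling.

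Cell types other than fibres also carry some of these transcripts, Hspb6 and Hspb1 in smooth muscle among them. The summed markers of several such types rose on Reloading. The 6 smooth muscle markers summed to 120 to 146 CPM in Control, 108 to 109 CPM in Unloading and 177 to 199 CPM in Reloading, with 5 of 6 called higher against Unloading. The 6 endothelial markers summed to 146 to 167, 140 to 141 and 248 to 304 CPM, and the 6 macrophage markers to 64.8 to 74.9, 69.6 to 70.7 and 137 to 154 CPM, with 5 of 6 called higher in each list. Much of the macrophage sum came from Cd68, at a mean of 3.05 CPM in Unloading and 45.9 CPM in Reloading. Cd163 was the macrophage marker not called (-0.10 ± 0.13, adjusted p = 0.581, edgeR). Every marker of these 3 lists had a count in each group. The 5 fibroblast markers split, with 2 called higher and 2 lower against Unloading. They summed to 423 to 671 CPM in Control, 521 to 533 CPM in Unloading and 582 to 785 CPM in Reloading. Of the muscle fibre markers 6 of 8 were called lower and 0 higher against Unloading, beside 19.0% and 18.5% of all tested genes. With scaling by library totals 4 of the 8 were lower, beside 1090 of 14851 tested genes. Without Control 2 and Reloading 1 it was 5 of the 8, beside 2347 of 14765. The part of these shifts in the rise of the small heat shock proteins was not tested. Without Control 2 and Reloading 1, where the skin transcripts were found, the log2 fold changes against Unloading were 3.68 ± 0.15 for Hspb1, 3.42 ± 0.12 for Cryab, 2.98 ± 0.13 for Hspb7, 1.62 ± 0.13 for Hspb8, 1.49 ± 0.11 for Hspb6, 0.62 ± 0.10 for Hspb2 and 0.44 ± 0.10 for Hspb3, all past the threshold of edgeR's test.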

How the data were processed

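Polyadenylated RNA of 9 gastrocnemius muscles was grouped by the labels, each library being taken as 1 mouse, so that p-values measure the spread between these libraries. Per the submitters' processing notes and the file headers, the authors aligned reads with STAR 2.7.3a to GRCm38.p6 and used featureCounts 2.0.3, without strand, on read pairs. The labels likewise say paired-end, but the study's methods speak of single reads. The deposited table holds raw counts of read pairs per gene, with no filter. The authors' deposited DESeq2 tables hold a mean signal per gene (counts over size factors), log2 fold changes and p-values, and served here for gene symbols only.

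Genes were kept by filterByExpr (minimum count 10, minimum total 15), scaled by TMM factors (trimmed mean of M-values) and tested in R 4.3.3 with edgeR 4.0.16, in 1 quasi-likelihood fit of all 9 libraries with the group as the only term. Tests were two-sided, adjusted by Benjamini and Hochberg over 14851 genes at a threshold of 0.05. CPM used TMM factors, RPKM the exon length of the count table, and log2 CPM a prior count of 2. Numbers in the titles did not pair libraries (r of their deviations -0.201 to 0.0752). Those in the sample descriptions gave 0.361, 0.143 and 0.155 for Control with Reloading, and 0.0172 to 0.0752 for pairs with an Unloading library. The 0.361 was that of Control 2 with Reloading 1, which both held the skin transcripts. A fit with the description numbers as a block was compared. Members and lists were chosen with earlier results of these data known. The rule for named genes took the 7 members, their 3 nearest genes by r, and in each list up to 4 genes with the largest change on Reloading against Unloading. Hsph1, Hspa8, Stip1, Vps16, Ttn, Des, Acta1, Dmpk, Stub1 and Mapkapk2 were also named, after their values were seen. The procedure was tested on simulated data. DESeq2 1.42.0, limma 3.58.1, other scalings, no filter, replicate blocks and left-out libraries were alternatives.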

Additional observations from a re-analysis of the deposited data

Results flagged for a closer look

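Among the 4 Control libraries, Hspb3 was highest in Control 2 at 22.2 CPM, and its gap to the next library, relative to the range of the group, was above Dixon's 95% critical value for 4 samples. The other Control libraries lay between 18.0 and 18.7 CPM. Control 2 also held the skin transcripts, at 301 CPM. The same check was made for each of the 7 genes in Control, and chance flags about 1 in 20 groups.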

How the results depend on the processing

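Each of the 7 genes stayed higher on Reloading under all 20 alternatives, with log2 fold changes against Unloading of 3.42 to 3.80 for Cryab, 3.68 to 4.11 for Hspb1, 0.57 to 0.90 for Hspb2, 0.37 to 0.65 for Hspb3, 1.49 to 1.82 for Hspb6, 2.91 to 3.28 for Hspb7 and 1.62 to 2.05 for Hspb8, and the only call lost was Hspb3 without Unloading 2. The counts of genes called in the lists were recomputed under alternatives chosen after seeing the data. Scaling by library totals alone raised the median of all genes to 0.27 against Unloading and 0.25 against Control and moved the split of calls to 5250 higher and 1090 lower from 2743 and 2819, and to 6028 and 1484 from 3287 and 3169. On Unloading against Control, 1 gene was called lower with no filter on low counts (Hspb6, -0.24, adjusted p = 0.0424, edgeR), where 34376 genes were tested. In the same comparison with 1 library left out, values ran from -0.16 to 0.01 for Hspb2, above 0 without Unloading 1, and from -0.22 to 0.04 for Hspb7, above 0 without Control 2 (0.04), without Unloading 2 (0.01) and also without Control 2 and Reloading 1 (0.04). The number of gene pairs whose ratio differed was 0 to 19 with 1 library left out and 0 without Control 2 and Reloading 1 (12 at an unadjusted p under 0.05, exact permutation), where Reloading standing apart alone gives 0.0476. With the replicate block by the sample descriptions the values against Control were 3.27 for Cryab, 3.67 for Hspb1 and 0.46 for Hspb3, and neither replicate block, by the titles or by the descriptions, changed a call on the 7 genes. Each value of the 7 genes rests on 165 or more counts per library, whereas genes of the lists had fewer, with a lowest count of 7 for Hspa1a and 12 for Mapk11.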
